A study of Rattus norvegicus with 4 samples.

Results

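The 10 immediate early transcription factors described here are Egr1, Egr2, Egr3, Fos, Fosb, Fosl1, Fosl2, Jun, Junb and Atf3. They were measured by all probe sets on a rat expression array that the platform's annotation assigns to exactly 1 of these symbols, which gave 10 of 14218 genes and 15 of 31099 probe sets. The arrays measured total RNA from neurospheres, which are clusters that float in the medium and grow from retinal cells, here from Sprague Dawley rat embryos at embryonic day 18. EGF, epidermal growth factor, was present in both groups. The first group had EGF alone (2 arrays), and the second had EGF plus endothelial cell conditioned medium (2 arrays). Retinae were pooled over embryos, and a further pool of embryos served as the replicate of both conditions, so an array stands for a culture of pooled embryos and not for an animal. The dose, the time in culture, the time between the last change of medium and RNA extraction, and the source of the endothelial cells are not given in the sources used here.

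Immediate early genes are transcribed within minutes of a growth factor signal without new protein synthesis. A signal from the EGF receptor passes through Ras and the MAP kinases to serum response factor and its ETS partners, which sit on the CArG box of such promoters. Egr1, Egr2 and Egr3 are zinc finger factors that bind GC-rich sites. Fos and Jun proteins pair through leucine zippers to form AP-1, and Atf3 is a stress-induced factor that pairs with them. The transcripts are short-lived, and in retina they are known to respond to growth factors, light, injury and the dissociation of the tissue.

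The promoters of Egr1 and Egr2 are shown because both genes rose and carry the same pair of motifs at the same distance from the start. Each is printed 5′ to 3′ on its own strand from RefSeq build GRCr8, 250 bases before to 50 after the transcript start of the promoter table. Capitals mark matches to the CArG box and to the core of the cyclic AMP response element, ACGTCA. The Egr1 window is chr18:26736828-26737127 on the + strand and the Egr2 window chr20:21054392-21054691 on the - strand.
Egr1: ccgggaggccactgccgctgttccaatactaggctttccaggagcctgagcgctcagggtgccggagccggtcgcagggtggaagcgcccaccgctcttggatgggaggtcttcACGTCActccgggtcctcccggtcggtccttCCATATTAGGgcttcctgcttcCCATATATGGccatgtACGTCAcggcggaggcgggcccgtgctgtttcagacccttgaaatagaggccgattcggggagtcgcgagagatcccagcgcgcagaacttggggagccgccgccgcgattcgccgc
Egr2: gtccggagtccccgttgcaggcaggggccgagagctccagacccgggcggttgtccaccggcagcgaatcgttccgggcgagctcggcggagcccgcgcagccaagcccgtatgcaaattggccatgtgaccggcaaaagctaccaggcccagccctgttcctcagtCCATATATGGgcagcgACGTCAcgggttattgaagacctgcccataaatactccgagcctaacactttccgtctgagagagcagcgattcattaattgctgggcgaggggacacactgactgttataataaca
Both windows held a CArG box spelled CCATATATGG from -83 to -74 and ACGTCA from -67 to -62, counted with the start as position 0. Egr1 held another CArG box, CCATATTAGG, from -105 to -96 and another ACGTCA from -136 to -131. The start of the Egr2 window lies inside the gene's annotated bounds in RefSeq, not at its outer end.

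The promoter table held 6 of the 10 genes, the other 4 being Egr3, Fos, Jun and Atf3. Both strands were searched for 5 motifs: the CArG box, the full cyclic AMP response element TGACGTCA, its core ACGTCA, the AP-1 site TGANTCA and the Egr site GCGGGGGCG. A full cyclic AMP response element also contains the core. Of 33469 rat promoters of the same length, 1.64% held a CArG box, 7.94% the core, 1.83% the full element, 7.33% the AP-1 site and 2.73% the Egr site. In Fosl2 the Egr site lay from -249 to -241. Fosb, Fosl1 and Junb had 0 matches in their windows, which says only that these letters are not in those 300 bases. The start of the Fosb window, like that of Egr2, lies inside the gene's annotated bounds and not at its outer end. A match describes the sequence and is not a measurement of binding.

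**Figure D1:**
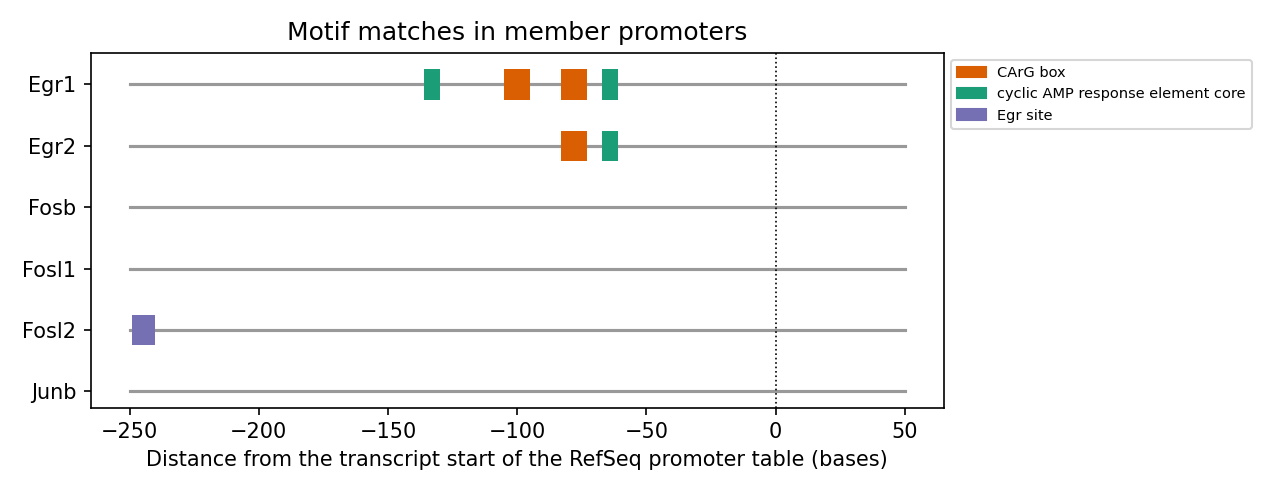
Positions of motif matches in the promoters of 6 member genes, with the distance from the transcript start of the RefSeq promoter table in bases on the x axis and 1 gene per line. The CArG box from -83 to -74 and the core from -67 to -62 sit at the same positions in Egr1 and Egr2.

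The deposited values are log2 summaries by RMA (robust multi-array average), and they were not equalised between arrays. Their medians over all probe sets were 6.03 and 6.25 log2 under EGF alone, against 6.84 and 6.56 log2 under conditioned medium. Bacterial and phage RNAs are added to the hybridization mix as controls, and the mean of their 18 probe sets was 10.45 and 10.45 log2 under EGF alone, against 10.70 and 10.49 log2 under conditioned medium. These controls therefore differed by 0.14 log2 on average between conditions, and their single probe sets by 0.0 to 0.43 log2. The median of the tested probe sets differed by 0.43 log2 as deposited. For actin, the probe set at the 3' end minus that at the 5' end, a distance that grows as RNA breaks down, was 1.99 and 2.08 log2 under EGF alone, against 1.54 and 1.37 log2 under conditioned medium. It moved with the condition beside every result below, and its part in them was not tested.

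Each probe set was therefore compared under 3 scalings: as deposited, with every array centred on its median, and quantile normalized. Differences are conditioned medium minus EGF alone. A probe set is said to have risen or fallen only where limma's Benjamini-Hochberg adjusted p was under 0.05 in the same direction under all 3. Probe sets under 4.77 log2 on average, the lowest 30%, were left out of the test as dim, and p-values were adjusted over the other 21717. Of the 15 member probe sets, 10 were tested, covering 8 genes. Fosb and Fosl2 had no tested probe set. The filter used the mean of all 4 arrays, so a dim probe set that was high in 1 condition could pass through that condition. Effect sizes are quantile normalized unless they are called deposited, and errors of differences are limma's SE.

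Of the 10 tested probe sets 4 rose, those of Egr2, Egr1, Fos and Atf3, and 0 fell. Over all tested probe sets 7.27% rose and 1.51% fell by the same rule. The median difference of the 10 was 0.56 log2 quantile normalized, 1.15 log2 as deposited and 0.58 log2 median-centred, against -0.01, 0.43 and -0.14 log2 over all tested probe sets. Counted within single scalings, the member probe sets past the threshold numbered 8 higher of 10 after quantile normalization (12.6% of all tested), 9 as deposited (38.3%) and 5 median-centred (8.42%). Several of the 10 are of Jun, and in the same order they stand for 6, 7 and 5 of 8 genes. In each of these scalings 0 members were lower, where 12.9%, 1.51% and 25.6% of all tested probe sets were. As deposited, all 15 probe sets were higher in both conditioned-medium arrays than in both EGF arrays, as were 69.4% of the 31042 probe sets other than array controls (3.50% were lower in both). After quantile normalization 13 of 15 were higher in this way and 1 lower, against 27.0% and 29.4%. Median-centred, 12 were higher and 1 lower, against 22.4% and 38.8%. The members were chosen with earlier results of these data known, so these counts describe them and do not set them apart from other lists. In bulk RNA, fewer cells of a type and less RNA per cell cannot be told apart.

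**Figure D2:**
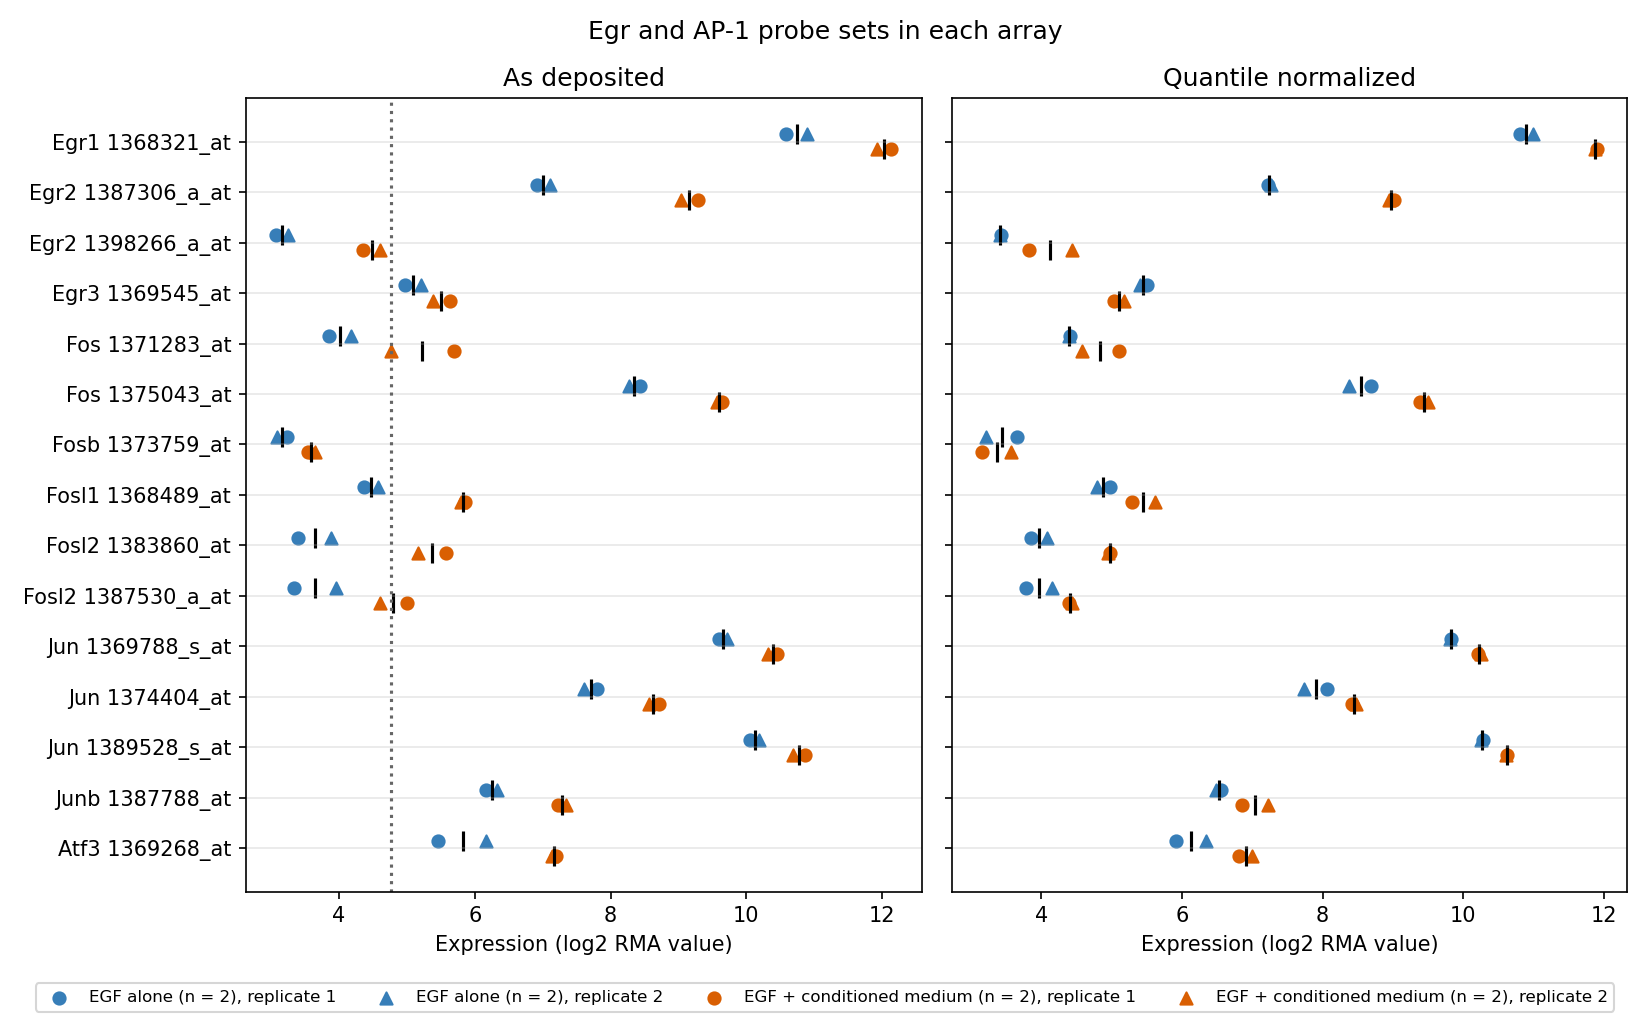
Log2 RMA value (x axis) of each of the 15 probe sets in each of the 4 arrays, as deposited (left) and quantile normalized (right); circles are replicate 1, triangles replicate 2 black ticks are group means (n = 2), and the dotted line on the left marks the 4.77 log2 limit for dim probe sets. On the left all 15 are higher with conditioned medium, and on the right Egr3 is lower and Fosb overlaps.

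Egr2, the zinc finger factor known for its roles in hindbrain and Schwann cell development, had the largest difference of the members. Its probe set 1387306_a_at read 6.91 and 7.11 log2 under EGF alone, against 9.29 and 9.03 log2 under conditioned medium (deposited scale). Both conditioned-medium arrays lay above both EGF arrays by 1.92 to 2.38 log2, far more than arrays of 1 condition differed. Egr2 rose 3.34-fold (1.74 ± 0.11 SE log2, n = 2 per group, limma adjusted p = 6.32e-06), and 99.7% of all tested probe sets had a smaller difference. The rise was 2.15 ± 0.20 log2 as deposited and 1.58 ± 0.11 log2 median-centred. A further probe set of the gene, 1398266_a_at, was dim, at 3.08 and 3.25 log2 against 4.36 and 4.61 log2 as deposited. It was not tested, its groups did not overlap, and its difference was 0.71 log2.

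Egr1, which responds to nearly every growth factor signal, was bright in all arrays. It read 10.59 and 10.90 log2 under EGF alone, against 12.13 and 11.92 log2 under conditioned medium (deposited scale). The groups did not overlap, and the smallest difference between arrays of different conditions was 1.02 log2. Egr1 rose 1.98-fold (0.98 ± 0.08 SE log2, n = 2 per group, limma adjusted p = 2.53e-05), and by 0.71 ± 0.09 log2 (SE) median-centred, the smallest of the 3 scalings. Its probe set 1368321_at is the only one with this symbol alone.

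Egr3, a relative of Egr1 that is needed for muscle spindles to form, did not pass. It read 4.97 and 5.21 log2 under EGF alone, against 5.64 and 5.38 log2 under conditioned medium (deposited scale). The direction depended on the scaling: the difference was 0.42 ± 0.39 SE log2 as deposited, -0.15 ± 0.25 median-centred and -0.35 ± 0.24 quantile normalized (limma adjusted p = 0.372, 0.681 and 0.316, n = 2 per group). Its level is close to the limit for dim probe sets, and no change of Egr3 was detectable in either direction.

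Fos, which binds DNA only as a dimer with a Jun protein, was measured by 2 probe sets of very different brightness. The bright one, 1375043_at, read 8.43 and 8.27 log2 under EGF alone, against 9.64 and 9.57 log2 under conditioned medium (deposited scale). Every conditioned-medium array was above every EGF array by at least 1.14 log2. This probe set rose 1.87-fold (0.91 ± 0.12 SE log2, n = 2 per group, limma adjusted p = 4.17e-04) and by 0.69 ± 0.14 log2 (SE) median-centred. The dim one, 1371283_at, was not tested and read 3.85 and 4.18 log2 against 5.70 and 4.76 log2 as deposited. Its difference of 0.44 log2 pointed the same way, and its conditioned-medium arrays differed by more than the groups did after quantile normalization (5.10 and 4.58 log2, against 4.41 and 4.40 log2 with EGF alone).

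Fosl1, also called Fra-1, and Fosl2, Fra-2, lack the strong activation domain of Fos and form AP-1 of a more lasting kind. Fosl1 read 4.37 and 4.57 log2 under EGF alone, under the dim limit, against 5.86 and 5.80 log2 under conditioned medium (deposited scale). The groups did not overlap. Fosl1 passed as deposited (1.36 ± 0.41 SE log2, limma adjusted p = 0.0052) and median-centred (0.79 ± 0.27, adjusted p = 0.0405), and did not pass after quantile normalization (0.58 ± 0.26, adjusted p = 0.137, n = 2 per group). The order was the same in every scaling, but the size rests on an EGF mean near background.

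Fosl2 had 2 dim probe sets, neither of them tested. Probe set 1383860_at read 3.40 and 3.89 log2 under EGF alone, against 5.58 and 5.16 log2 under conditioned medium (deposited scale). Its difference was 0.99 log2. Probe set 1387530_a_at read 3.34 and 3.95 log2 against 5.0 and 4.61 log2, with a difference of 0.45 log2. Both were higher in both conditioned-medium arrays under each of the 3 scalings. When the dim filter was dropped, 1383860_at passed under all 3 scalings (highest adjusted p = 0.0195, limma), where 4.92% of 31042 probe sets rose and 0.986% fell, and 1387530_a_at did not.

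Fosb, the member of the family known for its long-lived splice form in brain, was near the floor of the array. It read 3.23 and 3.09 log2 under EGF alone, against 3.54 and 3.64 log2 under conditioned medium (deposited scale). After quantile normalization its groups overlapped (3.65 and 3.22 log2 against 3.16 and 3.57 log2). Its single probe set is dim, so these data do not show whether Fosb differed.

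Jun, the central subunit of AP-1 and a target of the Jun N-terminal kinases, was measured by 3 probe sets, 2 of which (1374404_at and 1389528_s_at) were designed from the same sequence. As deposited, 1389528_s_at read 10.06 and 10.18 log2 under EGF alone, against 10.87 and 10.68 log2 under conditioned medium. Probe set 1369788_s_at read 9.60 and 9.71 log2 against 10.45 and 10.32 log2, and 1374404_at read 7.80 and 7.61 log2 against 8.71 and 8.56 log2. The groups did not overlap in any of the 3 on this scale. Their differences after quantile normalization were 0.35 ± 0.07, 0.41 ± 0.08 and 0.55 ± 0.13 SE log2 in that order (limma adjusted p = 0.00625, 0.0034 and 0.0103, n = 2 per group). None of them passed when the arrays were centred on their medians, where the differences were 0.09 ± 0.10, 0.17 ± 0.10 and 0.36 ± 0.14 SE log2 (limma adjusted p = 0.497, 0.223 and 0.0722). Jun therefore did not meet the rule for a rise, and its differences were smaller than those of Egr1 and of the bright Fos probe set in each scaling, a comparison that was not itself tested.

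Junb, which pairs with Fos proteins and often restrains Jun, read 6.17 and 6.32 log2 under EGF alone, against 7.23 and 7.35 log2 under conditioned medium (deposited scale). The groups did not overlap. It passed after quantile normalization (0.51 ± 0.17 SE log2, limma adjusted p = 0.0483, n = 2 per group) and narrowly missed median-centred (0.47 ± 0.17, adjusted p = 0.0544). Without the dim filter it did not pass after quantile normalization either (adjusted p = 0.0892, limma), nor with the replicate number as a block (adjusted p = 0.0529, limma). It rose under all 3 scalings with the lowest 50% left out (highest limma adjusted p = 0.0452) and with p-values adjusted over the brightest probe set of each gene alone (0.043).

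Atf3, induced by stress and by injury of neurons, varied most between the EGF arrays. It read 5.46 and 6.17 log2 under EGF alone, against 7.19 and 7.13 log2 under conditioned medium (deposited scale). The lowest conditioned-medium value was 0.95 log2 above the highest EGF value. Atf3 rose 1.71-fold (0.77 ± 0.19 SE log2, n = 2 per group, limma adjusted p = 0.0134), with the same 0.77 log2 median-centred. It did not pass when the intensity trend was left out of the fit (limma adjusted p = 0.0515).

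**Figure D3:**
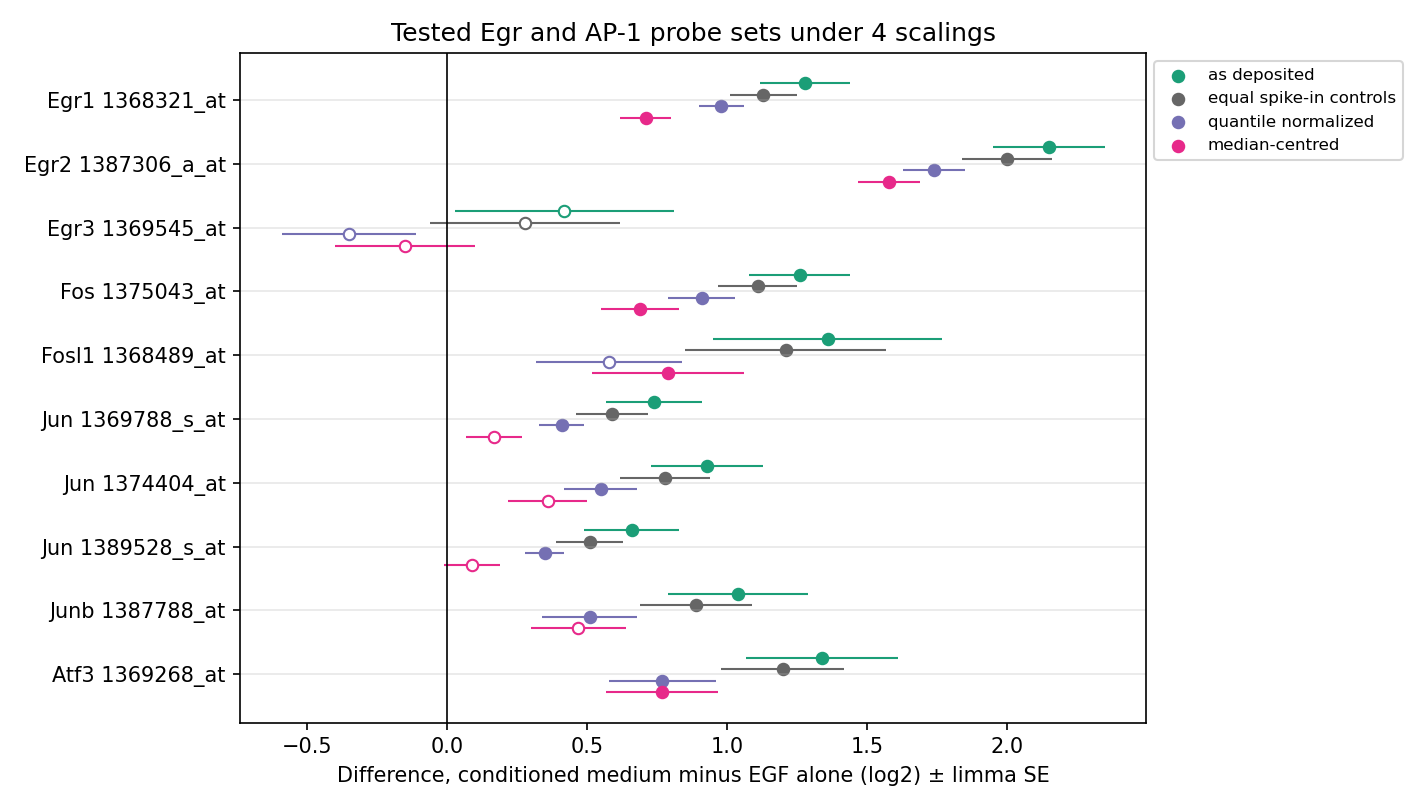
Difference between conditioned medium and EGF alone (x axis, log2) with limma's SE for the 10 tested probe sets under 4 scalings; filled points have an adjusted p under 0.05 and open points do not. Egr1, Egr2, Fos 1375043_at and Atf3 are filled in every scaling, the 3 Jun probe sets and Junb are open when median-centred, and Egr3 is open throughout.

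The calls rest on 2 arrays per group. Without either conditioned-medium array, limma after quantile normalization passed 0 of 21717 probe sets, with an unadjusted p under 0.05 for 2577 higher and 2914 lower without replicate 1 and for 2687 and 3097 without replicate 2. Egr2, Egr1 and Fos then had limma adjusted p = 0.0555 to 0.0839, and they stayed past the threshold when either EGF array was left out. Atf3 was lost whichever of the 4 arrays was left out (limma adjusted p = 0.0569 to 0.197). With 1 array left out the difference ranged from 1.70 to 1.79 log2 for Egr2, 0.89 to 1.07 for Egr1, 0.75 to 1.05 for Fos and, most widely of the 4, 0.54 to 0.98 for Atf3. With the arrays shifted to equal spike-in controls, a scaling chosen after seeing the data, 9 of the 10 probe sets were higher and Egr3 (0.28 ± 0.34 SE log2) was not, against 33.5% of all tested probe sets that were higher and 4.12% that were lower. On that scale the Jun probe sets differed by 0.51 to 0.78 log2 (highest limma adjusted p = 3.13e-04).

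The genes around these factors were taken from 5 lists, each gene by its brightest probe set. In all, 22 of 82 tested genes of the 5 lists rose and 0 fell, against 8.52% and 1.78% of the 11491 genes tested. These lists were written with earlier results of these data known.

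Of 14 tested relatives and cofactors of the Egr, AP-1, ATF and Maf families, 4 rose and 0 fell, with a median difference of 0.25 log2. Nab2 and Nab1, corepressors that bind Egr proteins, were both among the 4. Nab2 rose from 8.30 and 8.63 log2 to 10.14 and 9.89 log2 as deposited (1.21 ± 0.10 SE log2, limma adjusted p = 3.02e-05, n = 2 per group), and Nab1 rose by 0.74 ± 0.09 log2 (SE). The small Maf factor Maff rose by 1.27 ± 0.24 log2 (SE), from an EGF mean of 4.73 log2 that lies under the dim limit, and Maf by 0.76 ± 0.11 log2 (SE). Jund, the Jun protein that is expressed most steadily, differed by 0.21 ± 0.07 log2 (SE) in its brightest probe set and by -0.71 and -0.19 log2 in its others, and did not pass under all 3 scalings. Egr4 differed by 0.33 ± 0.27 log2 (SE) and passed only as deposited (1.11 log2, limma adjusted p = 0.0225).

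Upstream, 5 of 18 tested genes from the EGF receptor to serum response factor rose and 0 fell, with a median of 0.12 log2. Elk3, an ETS partner of serum response factor, rose from 7.21 and 7.12 log2 to 9.19 and 8.83 log2 as deposited (1.45 ± 0.12 SE log2, limma adjusted p = 4.48e-05, n = 2 per group). The related Elk4 rose by 0.58 ± 0.10 log2 (SE), but its other probe sets differed by 0.07 and 0.19 log2. The MAP kinase kinase Map2k1 (0.59 ± 0.08 SE) and the ribosomal S6 kinase Rps6ka3 (0.58 ± 0.11 SE) rose too. So did Erbb2, a relative of the EGF receptor (0.71 ± 0.13 SE). Serum response factor itself, Srf, differed by 0.14 ± 0.09 log2 (SE) and the EGF receptor, Egfr, by 0.31 ± 0.10 log2 (SE), and both passed only as deposited (limma adjusted p = 0.0283 and 0.00264). The other probe sets of Egfr differed by -0.04 to 0.83 log2. On the quantile scale 7 were called higher and 3 lower, as deposited 10 and 0, and median-centred 5 and 7, so the direction of the list as a whole depended on the scaling. The 3 lower ones were the Jun N-terminal kinase Mapk8 (-0.70 ± 0.08 SE log2), Araf (-0.45 ± 0.11 SE) and Rps6ka5 (-0.40 ± 0.13 SE). They were also lower median-centred and did not pass as deposited. The other probe sets of Mapk8 differed by -0.31 to 0.01 log2.

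Of 28 other immediate early genes 6 rose, Csrnp1 from an EGF mean under the dim limit, and 0 fell, with a median of 0.16 log2. Gadd45b, an early stress-response protein that binds MAP kinase kinase kinases, rose most, from 6.31 and 6.36 log2 to 9.01 and 8.98 log2 as deposited (2.22 ± 0.12 SE log2, limma adjusted p = 3.68e-06, n = 2 per group). Ccn1, a secreted matricellular protein, rose by 1.24 ± 0.22 log2 (SE), and the RNA-destabilizing protein Zfp36l1 and the zinc finger factor Klf6 rose by 0.73 ± 0.07 and 0.73 ± 0.09 log2 (SE). Zfp36, a relative of Zfp36l1, rose too (0.75 ± 0.19 SE). Some other genes that are induced together with Fos in many cells did not pass under all 3 scalings: Ier2 (0.48 ± 0.08 SE), the phosphatase Dusp1 (0.16 ± 0.09 SE), Nr4a1 (0.35 ± 0.32 SE) and Arc (0.50 ± 0.21 SE). The orphan receptor Nr4a2 (-0.58 ± 0.13 SE) was lower after quantile normalization, as were 3 genes of the list in all, and 0 were lower as deposited.

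Of 12 tested textbook targets of AP-1 and Egr factors 6 rose, Tgfb1 from an EGF mean under the dim limit, and 0 fell, with a median of 0.65 log2. The other 8 genes on the array lay below the dim limit, among them the matrix proteases Mmp3, Mmp9, Mmp10 and Mmp13. The metalloproteinase inhibitor Timp1 rose from 7.70 and 7.82 log2 to 10.11 and 9.87 log2 as deposited (1.87 ± 0.09 SE log2, limma adjusted p = 1.60e-06, n = 2 per group). Cyclin D1, Ccnd1, rose by 1.35 ± 0.08 log2 (SE), heme oxygenase, Hmox1, by 1.20 ± 0.13 and cyclooxygenase-2, Ptgs2, by 1.14 ± 0.16. Each of these genes has other regulators, and no binding was measured.

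Of 10 stress genes, which were listed because Atf3 belongs to the same response, the small heat shock protein Hspb1 rose (0.83 ± 0.26 SE log2), from an EGF mean of 4.70 log2 that lies under the dim limit, and the other 9 did not. The median of the list was 0.01 log2. Its direction depended on the scaling, with 1 gene higher and 1 lower on the quantile scale, 4 and 0 as deposited, and 1 and 4 median-centred. Atf4, the factor that induces Atf3 in the amino acid response, differed by -0.18 ± 0.06 log2 (SE), and Ddit3, also called Chop, by -0.30 ± 0.13 log2 (SE). Both passed, as lower, only when median-centred (-0.44 and -0.50 log2, limma adjusted p = 0.00637 and 0.024).

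**Figure D4:**
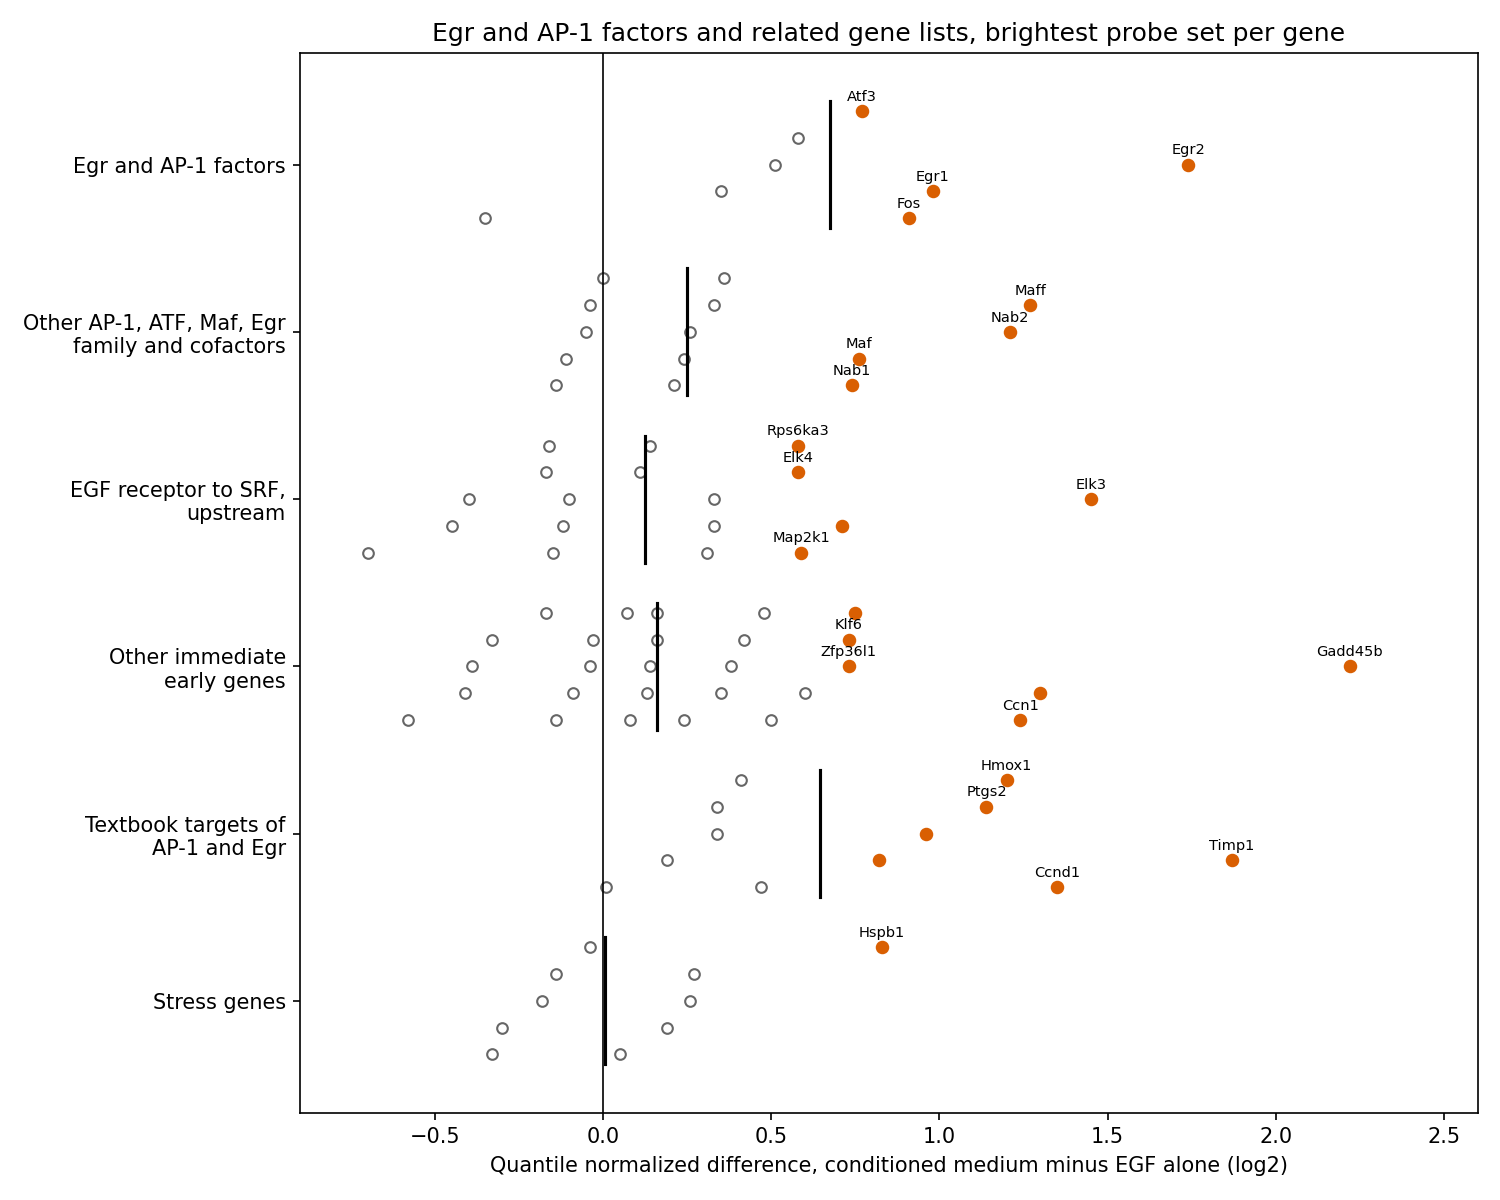
Quantile normalized difference (x axis, log2) of each tested gene, by its brightest probe set, for the Egr and AP-1 factors and 5 related lists; orange points rose under all 3 scalings, open points did not, black bars are medians, and vertical offsets only separate the points. The targets of AP-1 and Egr have a median of 0.65 log2 and the stress genes of 0.01 log2.

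The profile of Egr2 over the 4 arrays was compared with those of 11490 genes, by Euclidean distance between mean-centred quantile normalized values. Genes with symbols that start with LOC or RGD were then left out, and the 3 closest of the rest are given. They were the sphingosine phosphate receptor S1pr1 (0.033 log2), galectin-3, Lgals3 (0.047 log2) and the procollagen C-endopeptidase enhancer Pcolce (0.092 log2). S1pr1 read 8.96, 8.95, 10.73 and 10.65 log2 where Egr2 read 7.23, 7.26, 9.02 and 8.95 log2, EGF arrays first. With 2 arrays per group, such likeness says little beyond an equal difference between conditions.

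Markers of other cells moved in the same arrays. Where a marker's EGF mean lay under the dim limit, it entered the test through conditioned medium. Of 13 tested markers of microglia and leukocytes 9 rose (3 more were dim), 4 of them (Cd53, Aif1, C1qc and Ptprc) from such a mean, and the summed linear level of the 16 on the array was 970 and 1059 with EGF alone and 1885 and 1956 with conditioned medium after quantile normalization. Of 10 tested mesenchymal markers 9 rose (5 more were dim), Tagln and Twist1 from such a mean, with summed levels of 992 and 869 against 2469 and 2538. Of 8 tested endothelial markers 2 rose, Esam and Flt1, Flt1 from 3.40 and 3.59 log2 as deposited. Vwf, Eng, Cldn5, Plvap and Egfl7 were tested and did not rise under all 3 scalings. The 4 dim ones, Pecam1, Tek, Tie1 and Emcn, lay under the limit in both groups. The summed levels of 12 were 4427 and 4573 against 5985 and 5901. Kdr, which did not rise under all 3 scalings, made up 89.1% to 91.6% of that sum, and the other 11 summed to 484 and 383 against 553 and 516. Of 6 tested lens markers 2 rose, Crybb1 from a mean under the limit, with sums of 375 and 364 against 684 and 696. Of 8 tested markers of retinal neurons 6 fell, from sums of 8730 and 8650 to 4721 and 4668. Of 9 tested progenitor markers 4 rose and 0 fell. As deposited, Pax6, Rax and Six6 were above 10 log2 on average in both conditions, and Six3 was at 6.50 and 7.06 log2. After quantile normalization 5 of the list were higher and 1, Rax, was lower (-0.24 log2, limma adjusted p = 0.0347). Median-centred, 4 were higher and 2, Rax and Pax6, were lower (-0.48 and -0.43 log2, limma adjusted p = 0.00341 and 0.00494). The immediate early factors can be made by all of these cells, and the part of cell composition in their differences was not tested.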

How the data were processed

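Total RNA of 4 retinal neurosphere cultures, 2 per condition, was measured on a rat 3' expression array. The authors summarised the probes by RMA in GenePattern and deposited log2 values, per the labels and the series description. The version and normalization options are not given in the sources used here. Of 31099 probe sets, 20832 had 1 gene symbol in the platform's annotation, 436 several and 9831 none, and all 15 member probe sets matched RefSeq (GRCr8) by gene identifier. Members and gene lists were chosen with earlier results of these data known.

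The 57 array controls and the lowest 30% of probe sets by mean were left out of the test. The rest were fitted with limma 3.58.1 in R 4.3.3 (lmFit, eBayes with intensity trend, two-sided, Benjamini-Hochberg over 21717 probe sets), without a block, on quantile normalized values, with deposited and median-centred values as alternatives. On deposited values limma's prior was unlimited, so each spread came from the trend. Named genes beyond the members were up to 4 per list with the smallest p among those that rose or fell. The 3 profiles nearest to the member with the largest difference were named too, without symbols that start with LOC or RGD. Others (Jund, Egr4, Erbb2, Srf, Egfr, Mapk8, Araf, Rps6ka5, Zfp36, Ier2, Dusp1, Nr4a1, Nr4a2, Arc, Atf4, Ddit3, Csrnp1, Tgfb1, the dim Mmp genes and markers) were chosen after their values were seen. The design text says that both conditions were repeated on another pool of embryos, but no label ties a replicate number to a pool, so the block is an alternative. P-values rest on the spread between these cultures, largely pooled over probe sets by limma. Its prior had 7.97 degrees of freedom quantile normalized and 9.6 median-centred, against 2 residual ones. The number of arrays limits the precision. On simulated data with 21717 probe sets and 100 changes of each size, 99.0% of changes of 1 log2 and 70.0% of changes of 0.5 log2 were recovered. There were 10 false calls. The simulation was tested on the quantile scale alone, with noise set only by the level and no shift between arrays. Its rates therefore do not describe calls that need all 3 scalings in the real arrays.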

Additional observations from a re-analysis of the deposited data

How the results depend on the processing

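Counts over all probe sets moved with the scaling and with the arrays included. Higher probe sets numbered 2734 after quantile normalization, 8324 as deposited and 7266 with equal spike-in controls, and 1829 when median-centred. Lower ones numbered 2803, 328 and 894, and 5567 in the same order. Without the intensity trend 1642 were higher and 1623 lower, and 210 fell under all 3 scalings. With p-values adjusted over the brightest probe set of each gene alone, 1672 were lower of fewer tested, and 1048 rose and 205 fell under all 3 scalings. Leaving out 1 array gave 0 to 1170 higher and 0 to 793 lower, and under all 3 scalings 0 to 1042 that rose and 0 to 120 that fell. Among the members 8 probe sets were higher, 5 when median-centred, 4 without the trend and 0 to 4 with 1 array left out, and those that rose under all 3 scalings numbered 4 (0 to 4 with 1 array left out, 3 without the trend, where Atf3 was lost, and 5 with no filter, where Fosl2 was gained, with the lowest 50% left out or with the brightest probe sets, where Junb was gained). Whichever array was left out, 1 residual degree of freedom remained. Egr3 changed sign, to 0.42 log2 as deposited and 0.28 log2 with equal spike-in controls. Pathway genes called higher numbered 32, 52 as deposited and 49 with equal spike-in controls. Those called lower numbered 7, 0 as deposited, 16 when median-centred and 1 with equal spike-in controls.

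With the replicate number as a block, 45 probe sets in place of 328 fell under all 3 scalings, 4 member probe sets rose as before, and 7 in place of 8 were higher after quantile normalization, Junb being lost (adjusted p = 0.0529, limma). Arrays that share a number did not deviate together (r = -0.0464 across probe sets, -0.119 as deposited, 2 pairs). Apart from Egr3, no member probe set tested changed direction in any alternative. Fosb and Fosl2 lay under the dim limit, and Egr3 and Fosl1 close to it.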
